A study of Arabidopsis thaliana with 144 samples.

Results

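The comparison described here is between 2 independent runs of 1 experiment, called A and B in the sample titles, in Arabidopsis seedlings grown without bacteria. The members are the 72 axenic libraries, 36 from experiment A and 36 from experiment B, chosen by title alone; the series holds a further 72 with bacteria. Each experiment held the same 18 conditions with 2 libraries each. The genotypes were Col-0 (the wild type), phf1 (a mutant of the exit factor that brings phosphate transporters out of the endoplasmic reticulum) and phr1 phl1 (a double mutant of transcription factors that switch on the phosphate starvation response). Seedlings spent 7 days, with sucrose, on 5 µM phosphate (Pi; the −P pre-treatment), on 1 mM Pi (+P) or on 1 mM phosphite (+Phi), an analogue that is taken up but cannot serve as a nutrient. They were then moved to sucrose-free medium, with Pi at 50 µM in the low Pi and at 625 µM in the high Pi condition, and whole seedlings were harvested after a further 12 days. The other 72 libraries had the same design with a synthetic community of bacteria (SynCom) added, and they are used here only for comparison.

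Experiment is a batch. The 2 runs shared their stated conditions, and the labels give no date or operator for either, so anything that differed between the runs cannot be told apart from "experiment". The series text calls the replicates biological but does not say which plants went into which library. P-values therefore measure the spread between libraries, not the spread between experiments, of which there is 1 of each kind.

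Plants run several programmes whose gene sets are known well enough to read the state of a seedling from its RNA. Salicylic acid, made through isochorismate in response to infection or stress, switches on the pathogenesis-related (PR) genes. Iron shortage switches on a small group of basic helix-loop-helix (bHLH) regulators and then the reductase and transporter of root iron uptake, while ample iron switches on ferritins. Roots seal their endodermis with the Casparian strip and then with suberin, and leaves carry the photosystems and the enzymes of carbon fixation.

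Total counts per library, to 5 digits, ran from 1586600 to 8905200 in experiment A and from 2113600 to 9221200 in experiment B. Of the variance of the 72 libraries, 45% lay on the first principal component, and 93.1% of the spread on that component was between experiments. Every A library lay above every B library on that component. A single library stood apart on the second component, the first replicate of Col-0, +P, high Pi in B, at −172.1 against −26.16 to 18.23 for the others. PHR1 checked the labels of the double mutant: its median was 69.0 CPM (the count relative to the scaled total of its library) in Col-0 and 26.6 CPM in phr1 phl1 in A, and 77.9 CPM and 33.9 CPM in B. PHL1 did not fall in the double mutant, with medians of 16.3 and 14.0 CPM in Col-0 and 108 and 43.2 CPM in phr1 phl1 in A and B. In A, the library labelled as replicate 1 of Col-0 with +Phi and low Pi went against its label, with 25.7 CPM of PHR1 and 68.8 CPM of PHL1. PHF1 transcript was similar in all genotypes (medians 11.0 to 18.1 CPM) and checks no label. Some results are given with and without these 2 libraries, and all others include both.

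Of 19084 genes tested in a model with a term for each of the 18 conditions, 14198 differed between the experiments (74.4%; edgeR quasi-likelihood test, Benjamini-Hochberg adjusted p under 0.05). Of these, 6411 genes were higher in B (33.6%) and 7787 were lower in B (40.8%). With so many calls, a count of members says little alone, so sizes and ranges are given as well. A difference of at least 1 on the log2 scale was reached by 1018 genes higher in B (5.33%) and 1635 genes lower in B (8.57%), and the median of all genes tested was −0.05. All 36 A libraries lay above all 36 B libraries for 224 genes (1.17%), and all B libraries above all A libraries for 88 genes (0.461%). Without the 2 libraries above, these numbers were 274 and 143. The direction was the same in all 18 conditions for 1849 called genes higher in B (9.69%) and 2579 called genes lower in B (13.5%).

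**Figure D1:**
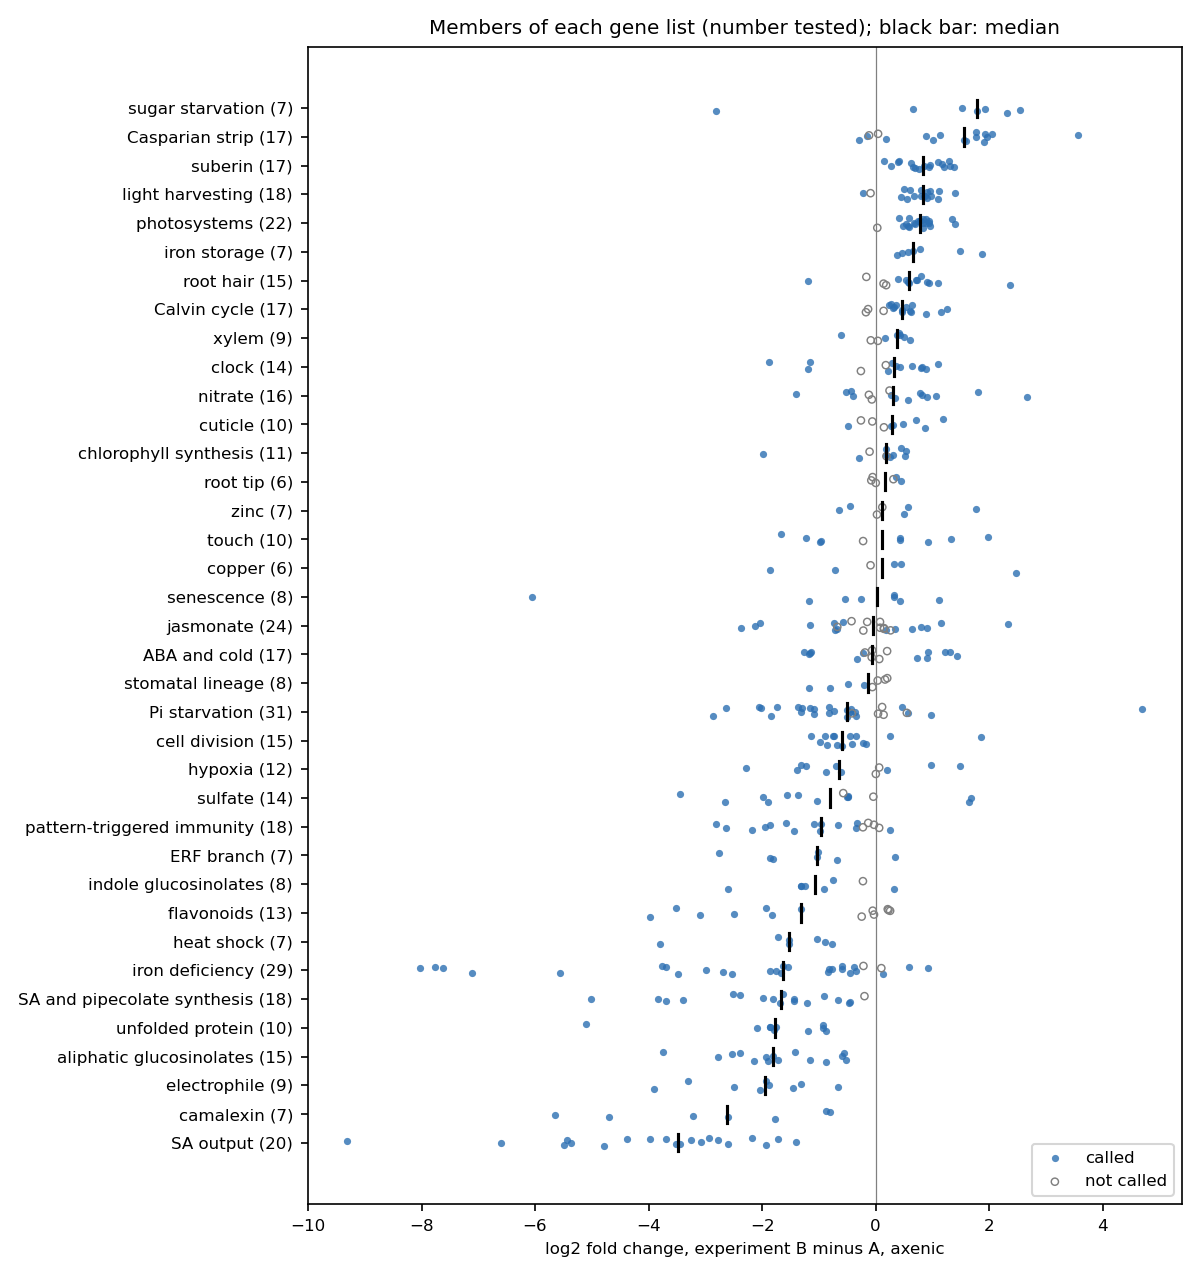
Log2 fold change (B minus A, axenic; x axis) of every tested member of the gene lists, 1 row per list with the number tested; filled points were called, open points were not, and the black bar is the list's median. Salicylic acid output has the lowest median (−3.49) and sugar starvation the highest (1.78).

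Salicylic acid genes were lower in B, and their output list had the lowest median of all lists. Of 18 tested genes of salicylic acid and pipecolic acid synthesis and signalling, 17 were lower in B and none higher, with a median log2 difference of −1.66. ICS1, the isochorismate synthase that starts the pathway, was at 22.8 CPM in the lowest, 50.9 in the median and 78.7 in the highest A library, and at 4.39, 12.9 and 24.7 CPM in B. The groups touched only at their edges, and the log2 difference was −1.80 ± 0.09 (SE; adjusted p 1.42e-27, edgeR). PBS3, which makes the conjugate from which salicylic acid is released, ran from 9.33 CPM through 49.0 to 107 CPM in A and from 0 through 1.27 to 6.16 CPM in B, with no overlap. The transcription factor SARD1, which activates ICS1, did not overlap either, with 29.6, 59.1 and 125 CPM in A and 0.975, 3.50 and 13.8 CPM in B. EDS1 and PAD4, partners in signalling from immune receptors, were lower by −1.43 ± 0.06 and −1.98 ± 0.08 on the log2 scale. FMO1, which makes N-hydroxypipecolic acid, the mobile signal of systemic resistance, was lower in 17 of 18 conditions (−3.69 ± 0.23). NPR3, a salicylic acid receptor that represses the response, was lower too (−1.44 ± 0.06). EPS1, the enzyme that releases salicylic acid from the PBS3 product, was the only tested member not called.

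All 20 genes of salicylic acid output were lower in B, each by more than 1 on the log2 scale, and for 9 of the 20 no A and B library overlapped. In the 250 bases before the gene's start in RefSeq (TAIR10.1), the letters TTGAC, the core of the W-box bound by WRKY factors, stood on either strand in 10 of the 20 promoters of this list (50.0%) and in 45.4% of the 19062 promoters of tested genes. TGACG, the core bound by TGA factors, stood in 6 of the 20 against 19.4%.

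PR1, a secreted antimicrobial protein and the usual marker of this response, had one of the lowest log2 differences of all. In A, PR1 was at 75.0 CPM in the lowest library, 789 in the median and 1466 in the highest. In B it was at 0, 0.425 and 20.1 CPM, with 9 libraries at 0 counts. The experiments were thus far apart, with 138527 counts over the 36 A libraries and 244 over the 36 B libraries. That is a ratio of 495 in CPM (95% counting interval 437 to 564). This ratio and the later ratios of summed counts use unscaled library totals. The fitted log2 difference was −9.31 ± 0.31 (adjusted p 3.79e-35), but a fitted value against libraries near 0 depends on the prior count. PR2, a glucanase that attacks fungal walls, ran from 54.7 through 198 to 412 CPM in A and from 0.375 through 1.83 to 6.15 CPM in B, and PR5, a thaumatin-like protein, from 28.4 through 158 to 437 CPM and from 0.335 through 3.61 to 9.46 CPM. Neither overlapped between experiments, and their log2 differences were −6.60 ± 0.15 and −5.44 ± 0.17. PNP-A, a secreted natriuretic-peptide-like protein (−3.97 ± 0.15), and WAK1, a wall-associated kinase (−3.52 ± 0.16), did not overlap either.

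**Figure D2:**
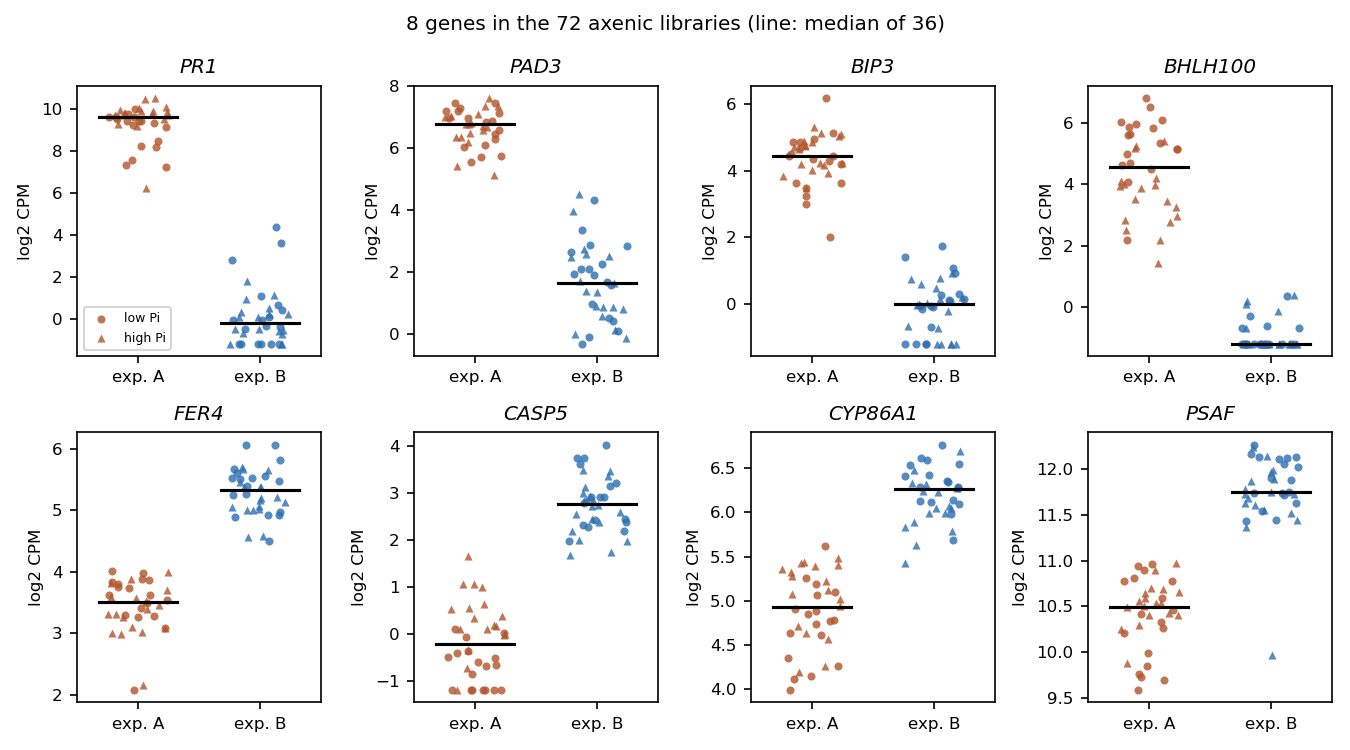
Level (log2 CPM, y axis) of 8 genes in each of the 72 axenic libraries, by experiment, with circles for low Pi and triangles for high Pi and a line at the median of 36. PR1, PAD3, BIP3 and BHLH100 are high in A, and FER4, CASP5, CYP86A1 and PSAF are high in B; the single low point of PSAF in B is the library that stood apart.

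Other defence groups were lower in B as well, though not all of their members. Of 18 genes of pattern-triggered immunity, the response to conserved microbial molecules, 13 were lower and 1 higher, with a median of −0.97. EFR, the receptor for bacterial elongation factor, was lower by −1.95 ± 0.12 and LYK5, a chitin receptor, by −1.58 ± 0.11. FRK1, a kinase gene used as the marker of this response, was at 19.6, 41.5 and 102 CPM in A and 0.994, 3.80 and 42.1 CPM in B, so the groups overlapped (−2.81 ± 0.20). NHL10, another early response gene (−2.63 ± 0.13), was the member without overlap. FLS2, CERK1, BAK1 and CYP81F2 were not called, and WRKY29 was the member higher in B (0.24); these 5 are named after their values were seen.

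All 7 genes of camalexin, the indole phytoalexin of Arabidopsis, were lower in B (median −2.61). CYP79B2, which makes indole-3-acetaldoxime from tryptophan, ran from 63.1 through 117 to 266 CPM in A and from 3.41 through 20.1 to 57.4 CPM in B. CYP71A13, the next step, was at 17.1, 72.7 and 157 CPM against 0, 0.548 and 15.4 CPM, and PAD3, the last step, at 35.0, 109 and 195 CPM against 0.375, 2.73 and 22.8 CPM. None of the 3 overlapped between the experiments, and their log2 differences were −2.61 ± 0.14, −5.66 ± 0.25 and −4.69 ± 0.21. CYP71A12 and CYP71A13 are close in sequence and may share reads.

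Glucosinolates are sulfur-rich defence compounds made from methionine (aliphatic) or tryptophan (indole). All 15 tested aliphatic genes were lower in B, with a median of −1.81, and 6 of 8 indole genes were lower and 1 higher (median −1.07). CYP79F1, the entry enzyme of the aliphatic branch, fell from a median of 15.4 CPM in A to 0.716 CPM in B (−3.74 ± 0.24). MAM1, which lengthens the side chain, was lower by −1.89 ± 0.12 and SOT17, a sulfotransferase of the last core step, by −2.53 ± 0.12. In the indole branch, CYP83B1 was lower by −1.24 ± 0.07 and the regulator MYB51 by −0.90 ± 0.08. A and B overlapped in all of the aliphatic genes.

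Of 13 tested flavonoid genes, 7 were lower in B and none higher, with a median of −1.32. This pools both Pi levels. In fits of 1 Pi level alone the median was −1.68 at low Pi and 0.17 at high Pi. MYB90, a regulator of anthocyanin synthesis, differed by −3.98 ± 0.40, TT19, a glutathione transferase of anthocyanin transport, by −3.51 ± 0.41, and LDOX, an anthocyanin synthase, by −2.49 ± 0.38. Their medians were below 1 CPM in both experiments, and each had A libraries at 0. In the fit with a mean per condition, 2 of the 13 were lower.

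Jasmonate genes did not move together. Of 24 tested, 7 were higher and 8 lower, with a median of −0.04. VSP2, a storage protein induced by jasmonate through MYC2, rose from a median of 2.62 CPM in A to 13.8 CPM in B (2.32 ± 0.17), and the repressors JAZ3 and JAZ9 were higher by 0.90 ± 0.06 and 1.14 ± 0.09. LOX4, a lipoxygenase of jasmonate synthesis, and ANAC019, a NAC factor downstream of MYC2, were lower (−2.13 ± 0.20 and −2.37 ± 0.22). In the ethylene branch, 6 of 7 genes were lower and 1 higher (median −1.04). The defensin PDF1.2A, its marker, had a median of 41.3 CPM in A and 3.84 CPM in B (−2.76 ± 0.35), with ranges that overlapped widely, from 0.276 to 199 CPM in A and from 0 to 61.9 CPM in B. The PDF1.2 copies are nearly identical and may share reads.

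Iron deficiency genes were lower in B too. Of 29 tested, 24 were lower in B and 3 higher, the median was −1.64, and 9 had no overlap between A and B. The 4 bHLH regulators of subgroup Ib, which are switched on when iron runs short, all belonged to those 9. BHLH38 ran from 2.61 through 29.3 to 162 CPM in A and from 0 through 0.695 to 1.89 CPM in B. BHLH39 was at 8.54, 30.2 and 89.2 CPM against 0.264, 2.06 and 5.90 CPM, and BHLH101 at 7.70, 20.4 and 36.4 CPM against 0.335, 1.68 and 3.81 CPM. Their log2 differences were −5.57 ± 0.25, −3.70 ± 0.17 and −3.49 ± 0.14, each in the same direction in all 18 conditions. BHLH100 ran from 2.24 through 23.1 to 111 CPM in A, and in B its median was 0 and its highest library 0.875 CPM. Summed over libraries it had 5816 counts in A and 17 in B, a ratio of 298 in CPM (counting interval 186 to 513). Its promoter is shown for this near-complete separation (TAIR10.1, chr2:17199455-17199704, minus strand, 250 bases before the start in the gene's direction), with the G-box CACGTG, a site bound by bHLH factors, in capitals.
BHLH100: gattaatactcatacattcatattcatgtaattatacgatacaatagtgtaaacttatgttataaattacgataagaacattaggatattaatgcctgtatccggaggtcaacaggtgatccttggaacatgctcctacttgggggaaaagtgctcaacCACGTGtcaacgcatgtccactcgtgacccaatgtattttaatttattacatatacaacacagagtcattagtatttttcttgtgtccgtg
The G-box begins at −91. It stood in 4 of the 29 promoters of this list (13.8%) and in 7.35% of all promoters of tested genes.

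Of the members with no symbol in the RefSeq table, AT1G47400, AT1G47395 and AT2G30766 were the lowest in B. Each had a median of 0 CPM in B, with 28, 25 and 29 of the 36 B libraries at 0 counts, and medians of 12.4, 28.3 and 17.1 CPM in A. The ratios of summed counts, in CPM, were 396 (201 to 918), 402 (248 to 704) and 210 (125 to 385). AT1G47395 and AT1G47400 lie in 1 family of near-identical copies and may share reads. The other members without overlap were BTS, an E3 ligase that restrains the response (−1.54), and OPT3, a phloem iron transporter (−2.52), both named after their values were seen.

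Uptake genes were lower in B as well. IRT1, the root iron transporter, was at 10.7, 80.2 and 150 CPM in A and 1.34, 23.2 and 111 CPM in B (−1.67 ± 0.20), lower in 16 of 18 conditions. FRO2, the root ferric reductase, was at 3.77, 43.9 and 116 CPM in A and 3.07, 24.6 and 115 CPM in B, with nearly the same range in both (−0.84 ± 0.20, adjusted p 0.000204). NAS4, a nicotianamine synthase for iron transport within the plant, was lower by −2.99 ± 0.23. The 3 members higher in B, named after their values were seen, were FIT, the bHLH partner needed for IRT1 and FRO2 (0.59), the vacuolar transporter FPN2 (0.92) and AT1G18910 (0.14).

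Iron storage genes went the other way, with all 7 tested members higher in B (median 0.66). FER4, a ferritin, was at 3.77, 10.9 and 15.7 CPM in A and 22.1, 39.5 and 66.3 CPM in B, without overlap (1.88 ± 0.08, adjusted p 5.77e-29). VTL2, a vacuolar iron transporter, was higher by 1.49 ± 0.12 and FER3 by 0.79 ± 0.07, each in all 18 conditions. FER1, the ferritin most used as an iron marker, is listed at 0 in every library and gives no information.

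Genes of the root barriers were higher in B. Of 17 tested Casparian strip genes, 13 were higher and 2 lower, with a median of 1.56, and 11 were higher by at least 1 on the log2 scale. CASP1, a membrane protein that marks the strip's domain, was at 4.88, 12.9 and 29.0 CPM in A and 21.9, 44.6 and 83.5 CPM in B (1.77 ± 0.12). CASP5 was at 0, 0.434 and 2.69 CPM in A and 2.75, 6.35 and 15.7 CPM in B and was the member without overlap (3.56 ± 0.20). MYB36, the transcription factor that directs strip formation, was higher by 1.01 ± 0.10, and PER64, the peroxidase that polymerises its lignin, by 1.78 ± 0.10, both in all 18 conditions. SHR, which specifies the endodermis, was not called (−0.11), and SCR, its partner, was among the 2 lower members (−0.15) with the oxidase RBOHF (−0.29); these 3 are named after their values were seen.

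All 17 tested suberin genes were higher in B (median 0.84). CYP86A1, the hydroxylase of suberin fatty acids, was at 15.4, 30 and 48.8 CPM in A and 42.6, 76.3 and 109 CPM in B (1.31 ± 0.08), and GPAT5, the acyltransferase of the next step, at 2.24, 4.93 and 8.84 CPM against 7, 11.1 and 21.4 CPM (1.29 ± 0.08). The ranges met only at their edges. MYB93, a suberin regulator, was higher by 1.38 ± 0.09. In whole seedlings, more root tissue or more endodermal cells cannot be told apart from more RNA per cell. Other root markers stood as follows. Of 15 root hair genes 11 were higher and 1 lower (median 0.58), and of 9 xylem genes 6 were higher and 1 lower (0.37). Of 6 tested root tip genes 2 were higher (0.16), near the share of 33.6% over all genes. RSL2, a root hair regulator, was higher by 2.37 ± 0.14 and EXPA7, a root hair expansin, by 1.09 ± 0.10. CESA8, a cellulose synthase of xylem walls, was higher by 0.61 ± 0.07, and PLT2, a root meristem factor, differed by −0.05 ± 0.18 and was not called. The part of organ proportions in the barrier result was not tested.

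Leaf photosynthesis genes were higher in B as well as the root genes. Of 18 light-harvesting genes 16 were higher and 1 lower (median 0.83), of 22 photosystem subunits 21 were higher (0.78), and of 17 Calvin cycle genes 14 were higher (0.46). PSAN, a subunit of photosystem I, was at 344, 733 and 1073 CPM in A and 1177, 1781 and 4129 CPM in B, without overlap (1.4 ± 0.09). LHCA2, an antenna protein of photosystem I, was at 1071, 1806 and 2742 CPM against 2714, 3654 and 4720 CPM (1.1 ± 0.06). RBCS1A, the main small subunit of Rubisco, shifted less, from a median of 6462 to 7841 CPM (0.31 ± 0.08). LHCB1.1 did not pass the test (−0.09 ± 0.07), while LHCB1.4 was higher by 1.4 ± 0.09; LHCB1 copies are near-identical and may share reads. Chlorophyll synthesis was mixed, with 7 of 11 genes higher and 2 lower. HEMA1, the first committed enzyme, was higher by 0.53 ± 0.07, and PORA, the protochlorophyllide reductase of dark-grown seedlings, lower by −1.98 ± 0.18. Of the leaf epidermis markers, 4 of 8 stomatal lineage genes were lower and none higher (median −0.13). Over all genes, 40.8% were lower and 33.6% higher, so the share lower was near that of all genes. Of 10 cuticle genes, 6 were higher and 1 lower (0.29). SPCH, which starts the stomatal lineage, was lower by −1.17 ± 0.13, and CER1, an enzyme of wax alkane synthesis, was higher by 1.18 ± 0.15.

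Genes of protein folding in the endoplasmic reticulum separated the experiments almost completely. All 10 were lower in B (median −1.77), and 9 had no overlap. BIP3, the chaperone most tied to the unfolded protein response, is shown with its promoter because it carries a pair of ER stress elements (CCAAT, 10 bases of any kind, then CACG), marked in capitals on the strand opposite to that of the motif (TAIR10.1, chr1:2931851-2932100, minus strand, 250 bases before the start in the gene's direction).
BIP3: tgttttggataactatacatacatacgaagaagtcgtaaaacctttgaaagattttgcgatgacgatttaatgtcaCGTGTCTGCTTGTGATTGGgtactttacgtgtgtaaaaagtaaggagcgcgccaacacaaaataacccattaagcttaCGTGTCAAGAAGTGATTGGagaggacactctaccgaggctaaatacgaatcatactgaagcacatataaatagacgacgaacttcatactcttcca
The matches begin at −174 and −96. On either strand this element stood in 3 of the 10 promoters of the list and in 0.86% of all promoters of tested genes. BIP3 was at 3.59, 21.4 and 72.1 CPM in A and 0, 0.554 and 2.90 CPM in B (−5.11 ± 0.20). CNX1, the membrane chaperone calnexin, was at 199, 268 and 391 CPM in A and 4.39, 76.6 and 101 CPM in B (−1.87 ± 0.09), and its lowest B value was 56.1 CPM without the library that stood apart. ERDJ3B and SDF2, parts of a chaperone complex that folds immune receptors, were lower by −1.85 ± 0.06 and −1.19 ± 0.05.

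Genes of heat shock and of chemical stress were lower in B too. All 7 tested heat shock genes were lower (median −1.52), among them HSP70 (−1.52 ± 0.21) and HSP90.1 (−1.53 ± 0.18). In fits of 1 Pi level alone the median of the heat shock list was −2.15 at low Pi and −0.57 at high Pi. All 9 genes induced by reactive electrophiles and mitochondrial stress were lower (median −1.94). CYP81D8, a cytochrome P450 used as a marker of this response, was at 40.4, 83.9 and 168 CPM in A and 2.44, 5.49 and 16.8 CPM in B, without overlap (−3.90 ± 0.13). NIT2, a nitrilase, was lower by −2.50 ± 0.12 and AOX1A, the alternative oxidase, by −1.88 ± 0.09. Hypoxia genes were mixed, with 7 of 12 lower and 3 higher: HB1, a haemoglobin, was lower (−2.29 ± 0.13) and HRE1, a hypoxia factor, higher (1.49 ± 0.10). Touch genes (5 of 10 higher, 4 lower, median 0.11) and abscisic acid and cold genes (6 of 17 higher, 6 lower, median −0.06) showed no common direction.

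Clock genes did not share a direction. The morning factors LHY and CCA1 were lower in B. LHY was at 15.7, 73.5 and 113 CPM in A and 6.85, 15.8 and 37.5 CPM in B (−1.88 ± 0.10), and CCA1 was lower by −1.15 ± 0.08. RVE8, a related morning factor, was lower by −1.20 ± 0.08. PRR5 and GI, which peak later in the day, were higher by 1.1 ± 0.10 and 0.81 ± 0.08. In all, 9 of 14 clock genes were higher and 3 lower (median 0.33). These differences pool both Pi levels. The experiment difference at low Pi departed from that at high Pi for most of the 14. It departed upward for 6 and downward for 6, against 11.4% and 9.74% of all genes. The evening element AAAATATCT stood in 5 of the 14 promoters (35.7%) and in 2.53% of all promoters of tested genes. The time of harvest is not given in the sources used here.

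Genes that mark low sugar were mostly higher in B, 6 of 7 tested, with a median of 1.78. MIOX2, an inositol oxygenase, was at 23.7, 76.5 and 185 CPM in A and 168, 480 and 855 CPM in B (2.54 ± 0.13). DIN10, a raffinose synthase, had medians of 1162 and 4270 CPM (1.92 ± 0.14), and DIN1, a dark-induced gene, medians of 606 and 2443 CPM (2.32 ± 0.18). DIN2, a glucosidase of the same list, went the other way (−2.81 ± 0.15). Of 15 cell division genes 13 were lower and 2 higher (median −0.59), with PCNA1, the clamp of DNA replication, lower by −1.14 ± 0.14 and CDC6, a replication licensing factor, higher by 1.86 ± 0.11. Senescence genes were split, 4 of 8 higher and 4 lower. SAG13, which also responds to stress, was lower by −6.05 ± 0.21 without overlap, and NAP, a senescence regulator, higher by 1.12 ± 0.09.

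Nutrient transport shifted in both directions. Of 16 tested nitrate and ammonium genes 9 were higher and 4 lower (median 0.31). NRT2.1, the high-affinity nitrate transporter, was at 4.22, 13.9 and 36.8 CPM in A and 22.9, 96.9 and 159 CPM in B (2.67 ± 0.11), and AMT1;3, an ammonium transporter, did not overlap (1.8 ± 0.09). Of 14 sulfur genes 10 were lower and 2 higher (median −0.80). In fits of 1 Pi level alone their median was −1.84 at low Pi and −0.15 at high Pi. SULTR1;2, the root sulfate transporter, was higher by 1.69 ± 0.11, and APR1, the reductase of sulfate assimilation, lower by −1.89 ± 0.15. Of 31 phosphate starvation genes 22 were lower and 4 higher (median −0.51). PAP17, an acid phosphatase, was lower by −1.84 ± 0.13, PPSPASE1, a phosphatase of the starved plant, by −2.87 ± 0.21, and SPX1, a Pi sensor, by −0.83 ± 0.15. IPS1, the non-coding RNA that sequesters miR399, was not called (0.04 ± 0.25). PHT1;3, a Pi transporter close in sequence to its neighbours, was higher (4.70 ± 0.30) from a median of 0 CPM in A to 1.36 CPM in B, and may share their reads. Copper genes (3 of 6 higher, 2 lower) and zinc genes (3 of 7 higher, 2 lower) were split, with FSD1, the iron superoxide dismutase, lower by −1.85 ± 0.19 and ZIP3, a zinc transporter, higher by 1.76 ± 0.14.

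Among genes with a mean of at least 5 CPM and the same direction in all 18 conditions, the largest decreases were of genes nearly without counts in B. AT2G44240, an NEP-interacting protein, had 4180 counts in A and 1 in B. AT1G13609, a defensin-like gene, had 8369 and 6 counts, a ratio of 1216 in CPM (559 to 3316). PRX52, a peroxidase, had 6994 and 25 counts (ratio 244, 165 to 377), and AT2G04070, a MATE efflux family gene, 9305 and 43 counts (ratio 189, 140 to 261). With PR1, BHLH100, AT1G47400 and AT1G47395, these were the 8 largest decreases by fitted log2 difference, an order that depends on the prior count; AT2G30766, for one, had a higher ratio of counts than AT2G04070. The increases were smaller. AT3G29410, a terpenoid cyclase, was at 0, 1.15 and 6.26 CPM in A and 2.2, 20.6 and 52.8 CPM in B (3.75 ± 0.21). TIP2;3, a root aquaporin of the vacuole that passes ammonium, was at 1.3, 12.3 and 54.4 CPM against 31.2, 122 and 243 CPM (3.34 ± 0.16). GLR2.3, a glutamate receptor-like channel, did not overlap (3.33 ± 0.15), nor did AT4G37220, a cold acclimation family gene (2.97 ± 0.14), with 2.25 to 25.9 CPM in A and 27.0 to 133 CPM in B. AT3G43850 (3.12 ± 0.15), AT3G59930 (3.09 ± 0.14), AIR1 (3.05 ± 0.18) and AT1G02620 (2.95 ± 0.16) completed the 8 largest increases.

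Each list was also summarised in every library as a score, the mean of its members' log2 CPM after centring each member over the 72 libraries. The score of salicylic acid output was lower in B in all 18 conditions, by −2.42 in the smallest and −4.68 in the largest difference. The scores of camalexin (−1.91 to −4), iron deficiency (−1.37 to −2.62), unfolded protein (−1.28 to −2.80), aliphatic glucosinolates (−0.46 to −2.94) and electrophiles (−1.10 to −2.65) were lower in all 18 too. The lowest unfolded protein score of a B library was −2.76. It was −1.23 without the library that stood apart and the one that went against its label. Casparian strip (0.53 to 1.66), suberin (0.48 to 1.17), photosystems (0.22 to 1.41), light harvesting (0.18 to 1.39), iron storage (0.40 to 1.84) and sugar starvation (0.18 to 2.29) were higher in all 18. Jasmonate was higher in 4 of 18 conditions and flavonoids in 6.

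**Figure D3:**
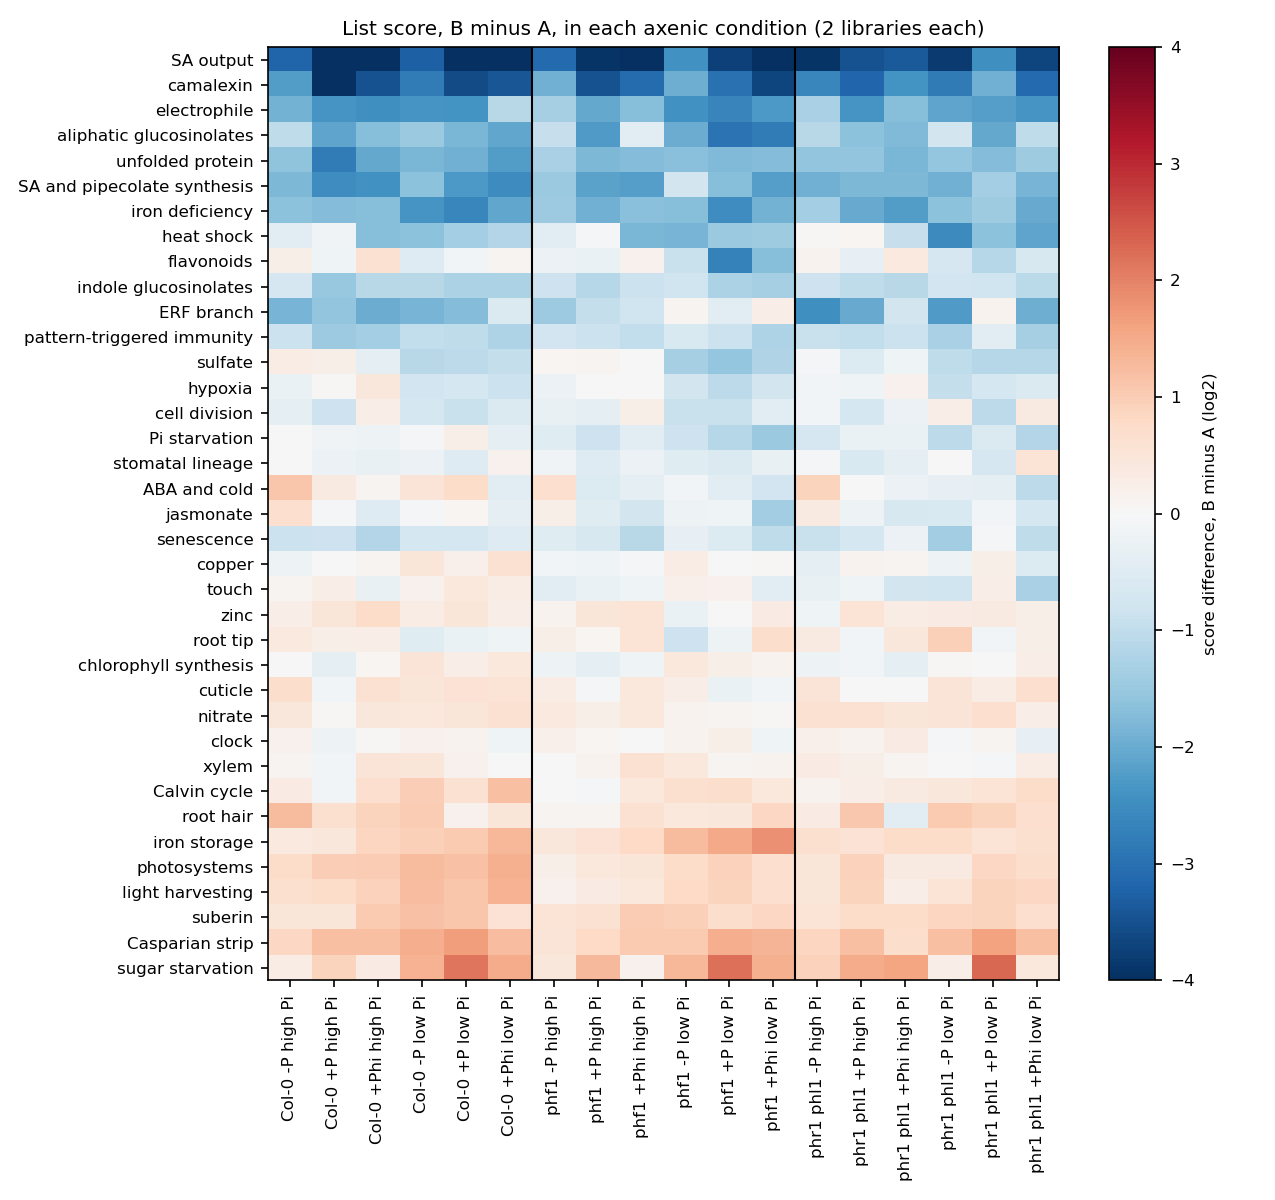
Difference in list score (B minus A, log2; colour) in each of the 18 axenic conditions (columns; 2 libraries per experiment) for each list (rows), with black lines between genotypes; colours saturate at 4 and −4. The blue rows at the top and the red rows at the bottom keep their colour across columns, while flavonoids, sulfate and heat shock are bluer at low Pi.

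Whether the difference depended on the medium was tested by interaction terms in a model with a mean for each condition in each experiment. Values within a genotype, Pi level or pre-treatment are from a fit of those libraries alone, so their difference need not equal the departure, which is from the fit of all 72. The experiment difference at low Pi departed from that at high Pi for 4037 genes (21.2%), 2178 upward (11.4%) and 1859 downward (9.74%); without 1 replicate number of 1 experiment the upward count ran from 730 to 2911. For HSFA2, a heat stress factor, the log2 difference was −3.15 at low Pi and −0.57 at high Pi, and the difference between them was −2.50 ± 0.67 (adjusted p 0.00572). GolS2, a galactinol synthase (−2.29 ± 0.51), TH8, a thioredoxin (−2.95 ± 0.94), and NAS4 (−2.19 ± 0.41) were also lower in B by more at low Pi. The lipid-transfer-like genes AT5G46900 and AT5G46890, near-identical neighbours, were higher in B by 3.14 ± 0.35 and 2.81 ± 0.38 more at low Pi than at high Pi. CASP5 was higher by 5.20 at low Pi and by 2.70 at high Pi (difference 2.4, adjusted p 3.09e-05). At low Pi its A libraries were near 0, several of them at 0 counts, so these sizes depend on the prior count. PR1 and BHLH100 were not called in these terms, and each had B conditions in which both libraries were at 0.

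The same interaction can be read as the response to Pi within each experiment. In A, 8033 genes differed between low and high Pi (42.1%), 4211 higher (22.1%) and 3822 lower (20.0%) at low Pi, whereas in B there were 453 (2.37%), 296 higher (1.55%) and 157 lower (0.823%). Without the library that stood apart B had 483 and 354, and without the library that went against its label A had 4500 and 4176. Phosphate starvation genes gave calls in both: 28 of 31 were higher and 1 lower at low Pi in A (median 1.42), and 19 were higher and none lower in B (median 0.91). SPX1 was higher at low Pi by 1.61 ± 0.12 in A and 1.36 ± 0.22 in B, and the non-coding RNA AT4 by 2.41 ± 0.26 and 2.2 ± 0.38. The difference between experiments was not called for either (adjusted p 0.568 and 0.82), but for 8 of the 31 genes the departure was called, all downward, against 9.74% of all genes. Some other groups gave many calls in A and few in B, and the test of the departure is given with each. Sulfur genes had 11 of 14 higher at low Pi in A (median 1.32) and none called in B (−0.14), and for 9 of 14 the departure passed. Heat shock genes had 7 of 7 higher in A (1.16), and 1 was lower and none higher in B (−0.32), with 4 of 7 departures called. Aliphatic glucosinolate genes had 11 of 15 higher in A (0.55) and none called in B (0.05), with 3 of 15 departures called. APR1 was higher at low Pi by 1.49 ± 0.15 in A and differed by −0.03 ± 0.16 in B, a departure that passed the test (adjusted p 9.85e-06), as did ADH1, alcohol dehydrogenase of the hypoxia list, with 1.33 ± 0.15 and −0.26 ± 0.20 (adjusted p 1.49e-07). Flavonoid genes had 13 higher at low Pi in A and 1 in B, but the departure was called for 1. Not all groups were quiet in B. Of 14 clock genes, 3 were higher and 3 lower at low Pi in A, and 4 were higher and 5 lower in B. The departure was called upward for 6 and downward for 6 of the 14. Of 17 Calvin cycle genes, 8 were lower and none higher in A, and 5 were higher and none lower in B. For 13 of the 17 the departure was called upward, against 11.4% of all genes. Salicylic acid output (medians 0.02 and 0) and suberin (0.01 and 0.12) gave at most 3 calls to Pi in either experiment.

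**Figure D4:**
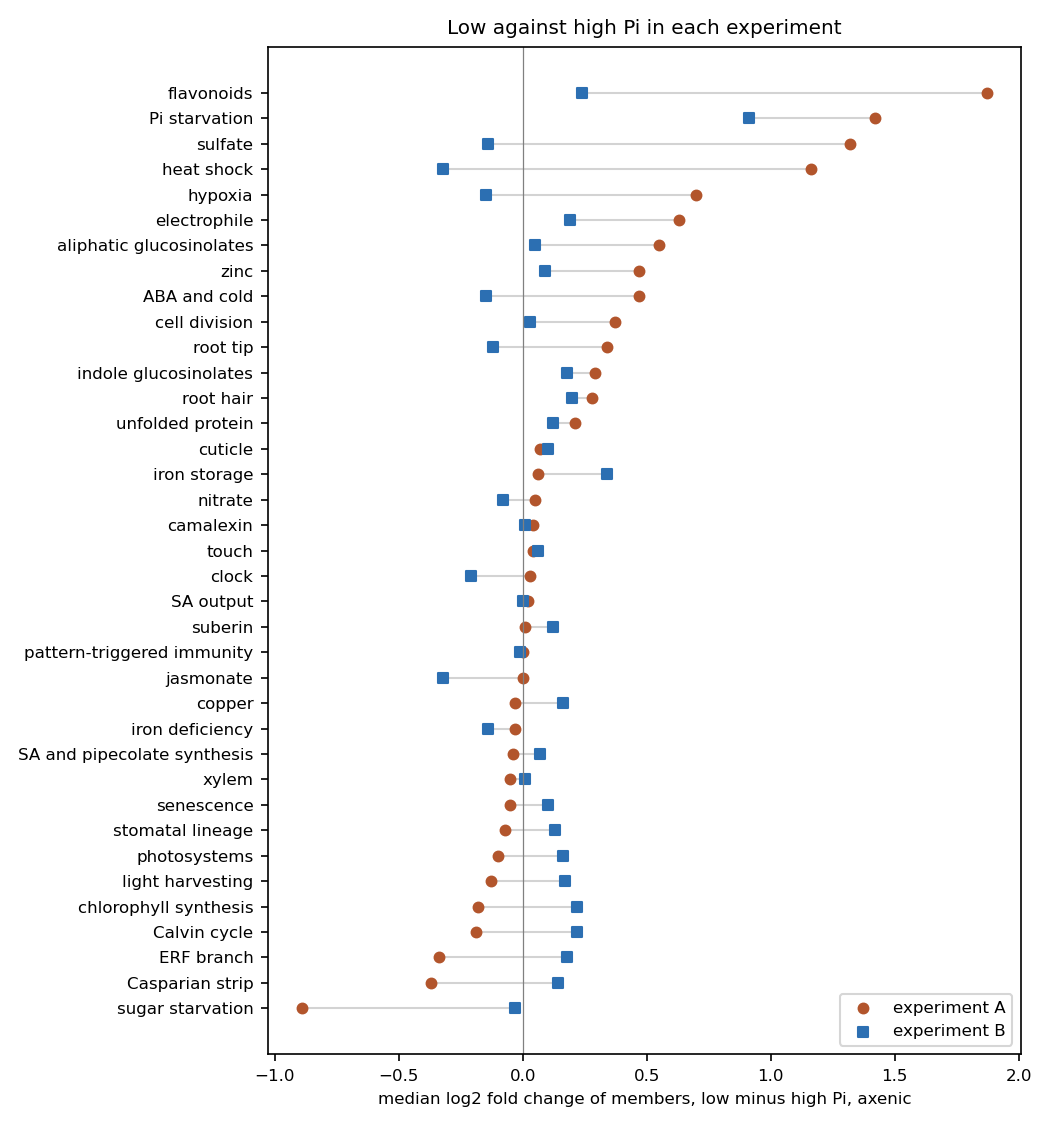
Median log2 fold change of each list's members at low against high Pi (x axis) in axenic experiment A (circles) and B (squares), with a grey line joining the experiments. Flavonoids, sulfate and heat shock are far to the right in A and near 0 in B, and Pi starvation is to the right in both.

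Genotype and pre-treatment gave fewer departures. The experiment difference departed from that in Col-0 for 959 genes in phf1 (5.03%), 2.04% upward and 2.99% downward. In phr1 phl1 it did for 629 genes (3.3%), 1.21% upward and 2.09% downward. It departed from that after +P for 1113 genes after −P (5.83%), 2.54% upward and 3.29% downward, and for 1679 after +Phi (8.8%), 4.29% upward and 4.51% downward. Leaving out all libraries of 1 replicate number of 1 experiment moved these counts widely: departures upward in phf1 ranged from 19 to 2483 genes and in phr1 phl1 from 12 to 2035, the highest without replicate 2 of B, which leaves the library that stood apart as the only one of its condition. Without the 2 libraries in doubt, phf1 had 579 upward and 699 downward departures against 389 and 570. In that setting phr1 phl1 had 489 upward and 694 downward departures against 231 and 398, and −P had 798 and 1024 against 485 and 628. In phf1, PHO1;H1, a Pi exporter, was lower in B by −2.2 against −0.42 in Col-0 (difference −1.93 ± 0.30, adjusted p 0.000214), and DIR5, a dirigent protein, was not lower as in Col-0 (0.60 against −1.62, difference 2.26 ± 0.28). In phr1 phl1, AT4 was lower by −1.72 against 1.41 higher in Col-0 (−2.84 ± 0.38, adjusted p 3.31e-05). Both mutants were compared with the same Col-0 libraries, among them the 2 in doubt. Values for single genes and for lists in this paragraph include those 2 libraries. By list, 12 of 31 phosphate starvation genes departed downward in phf1 and 8 in phr1 phl1; the shares over all genes are those above. Of the 22 photosystem genes, 16 departed downward in phf1 and 14 in phr1 phl1, and the median difference was 1.16 in Col-0, 0.61 in phf1 and 0.63 in phr1 phl1. PHL1 itself was lower in B by more in phr1 phl1 than in Col-0 (−0.96, adjusted p 0.0022). After −P, CYP79F1 was less lowered than after +P (−2.60 against −4.91, difference 2.61 ± 0.65). After +Phi, JRG21, an oxygenase that inactivates jasmonate, was more lowered (−5.81 against −2.97, difference −2.74 ± 0.76), and NAS4 less (−2.49 against −4.06, 1.66 ± 0.54).

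With bacteria the experiments differed less. Of 19337 genes tested in the SynCom libraries, 10269 were called (53.1%), 4897 higher (25.3%) and 5372 lower (27.8%) in B, and the median absolute log2 difference was 0.213 against 0.347 in axenic libraries. Of 18865 genes tested in both, 6765 were called in both in the same direction, which is 48.2% of the axenic calls and 67.0% of the SynCom calls, and 1225 were called in opposite directions. The test of the difference itself called 10757 of 19678 genes (54.7%), 29.2% upward and 25.4% downward. PHR1 was 3.11 to 7.59 times PHL1 in Col-0 and 3.16 to 6.97 times in phf1 SynCom libraries, and 0.223 to 1.49 times in phr1 phl1, apart from 3 libraries of A at high Pi. These were labelled phf1 (0.715 and 1.56 times) and phr1 phl1 (4.07 times). Without them, a setting chosen after seeing the data, 4654 genes were higher and 5212 lower in B with SynCom. In that setting 1 of 27 marker genes, BHLH101, lost the call of its departure from the axenic difference (0.62). Over all 8 alternative settings, 7 of the 27 lost that call in at least 1.

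PR1 in SynCom libraries was at 15.4, 271 and 1274 CPM in A and 0.309, 32.2 and 1038 CPM in B, so the ranges overlapped (−2.73 ± 0.43), and the departure from the axenic difference was 6.61 ± 0.58 (adjusted p 5.45e-18). PR2 and PR5 departed by 5.16 ± 0.36 and 4.3 ± 0.35. Of the 20 salicylic acid output genes, 17 were still lower in B with SynCom (median −1.02). Root barrier genes did not have the direction they had without bacteria, and 13 of 17 Casparian strip genes and 16 of 17 suberin genes departed downward. CASP1 was lower in B by −0.45 ± 0.19 with SynCom (departure −2.25 ± 0.23), CASP5 differed by 0.13 ± 0.24 (not called), and the medians of the Casparian strip and suberin lists were −0.41 and −0.16. Aliphatic glucosinolates had a median of −0.06 with SynCom, and all 15 departed from the axenic difference. Iron deficiency genes were lower here too: 27 of 29 were lower in B with SynCom (median −1.52). Single members still departed from the axenic difference, 9 upward and 12 downward of the 29, with a median departure of 0.01. Over all genes 29.2% departed upward and 25.4% downward, so the upward share of the list was near that of all genes. IRT1 was at 20.9, 118 and 1131 CPM in A and 0.983, 19.1 and 65.2 CPM in B, lower by −2.76 ± 0.23, which departed from the axenic value by −1.09 ± 0.31. Photosystem and light-harvesting genes were higher in B with SynCom for 22 of 22 and 18 of 18 (medians 0.72 and 0.70), and electrophile genes lower for 9 of 9 (−1.87).

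**Figure D5:**
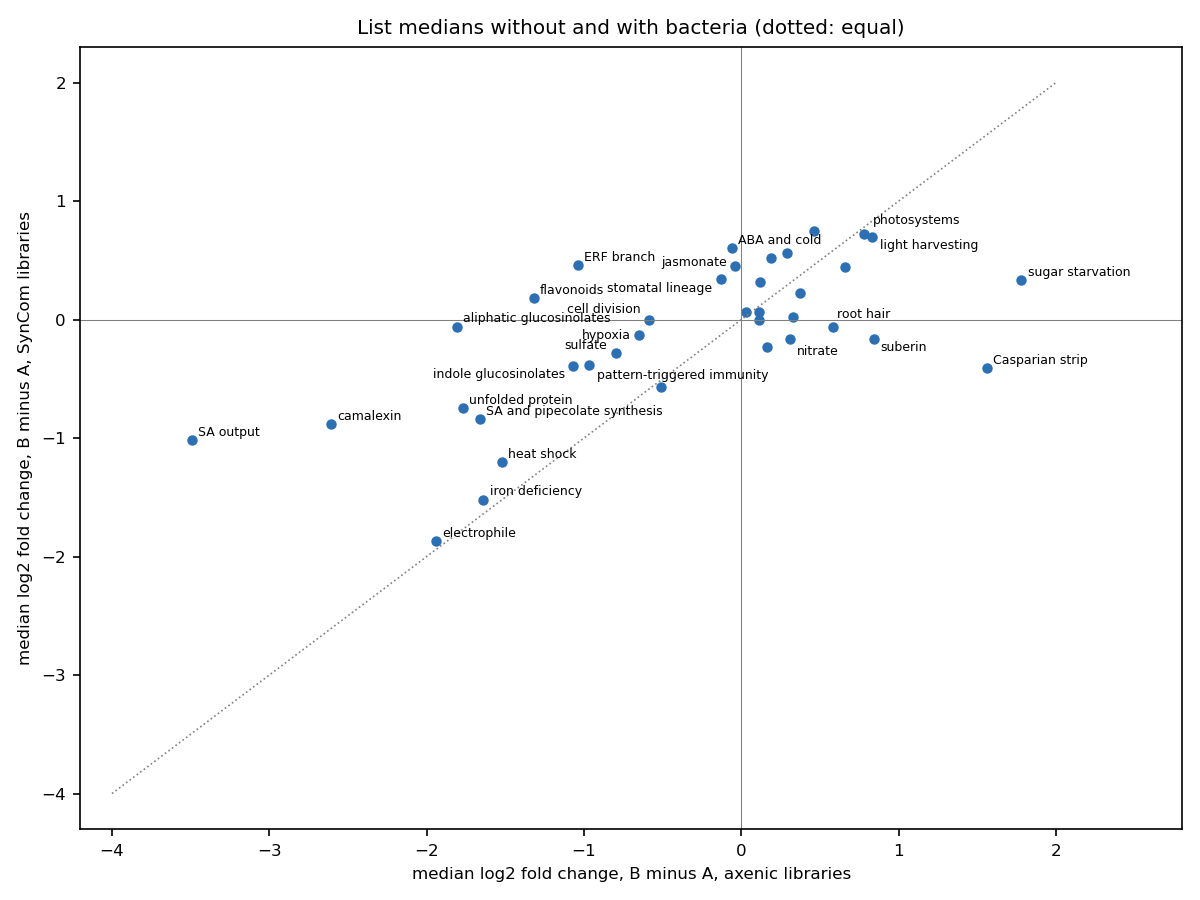
Median log2 fold change of each list's members, B minus A, in axenic libraries (x axis) and in SynCom libraries (y axis); the dotted line marks equal values, and lists far from the line or from 0 are named. Electrophile, iron deficiency and photosystem lists lie near the line, and salicylic acid output, camalexin, aliphatic glucosinolates, Casparian strip and suberin lie far from it.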

How the data were processed

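Whole seedlings were measured by RNA-seq of poly(A) RNA in non-stranded libraries, per the labels' protocols, so reads of a gene and of an overlapping antisense gene cannot be told apart. The authors deposited whole-number counts per gene, 1 column per library, not normalized; the table holds 27206 genes, 24700 of them with a count in the axenic libraries. The submitters' processing notes name CASAVA 1.8, cutadapt 1.3, TopHat2 2.1.1, HTSeq 0.6.1p1 and TAIR10. Symbols came from the RefSeq table, which lacks 487 of the loci.

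Counts were filtered (filterByExpr, minimum count 10), scaled by TMM and fitted in edgeR 4.0.16 under R 4.3.3 with a term for each of the 18 conditions and 1 for experiment. Differences are B minus A on the log2 scale, with standard errors taken from the F statistic, and CPM values use the TMM library sizes. Ratios of summed counts are the exception and use unscaled totals. The median TMM factor was 1.06 in A and 0.947 in B. Interactions came from a fit with a mean per condition and experiment, and the SynCom difference from a fit of axenic and SynCom libraries together. P-values were adjusted over all genes tested in a comparison. Counting intervals are at 95% and cover counting error only, since the reads carry no molecular identifiers. The axenic fit of B against A was tested on simulated data, and the other fits were not.

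The comparison, its 37 gene lists (531 genes) and the rules for named genes were chosen with earlier results of these data known, so no list is independent evidence. Named genes are, per list, up to 5 with the smallest p; the 8 largest changes each way among genes of at least 5 CPM on average with 1 direction in all 18 conditions; up to 4 each way per interaction; and fixed markers. Promoters were read from RefSeq TAIR10.1 by locus; the deposited table holds no coordinates to compare with it. Replicate numbers did not pair samples of A with samples of B. The correlation of replicate deviations between A and B averaged 0.00798 (−0.209 to 0.185), above 0.1 in 2 of 18 conditions. Between conditions within an experiment it averaged 0.0755. No replicates held identical values. Alternatives were DESeq2 1.42.0 and its size factors, limma 3.58.1 (voom with weights), other filters (minimum count 30, or none), a replicate block, other models and leaving out libraries.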

Additional observations from a re-analysis of the deposited data

Results flagged for a closer look

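The values in this section are departures of the experiment difference (B minus A, log2) between conditions, each past the adjusted threshold in edgeR. The departures called were 959 genes in phf1 and 629 in phr1 phl1 against Col-0, 4037 at low against high Pi, 1113 after −P and 1679 after +Phi against +P, and 10757 with SynCom against axenic. For the first 5 of these the counts without 1 replicate number differ widely, and 27 of the 40 gene departures within axenic libraries lost their call in at least 1 alternative setting.

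In phf1 against Col-0, the departure was −2.05 for AT5G20790, −1.98 for MGD3, a galactolipid synthase of the Pi-starved plant, −1.93 for PHO1;H1 and −1.71 for the TRAF-like gene AT4G01390. It was 2.91 for the CAP family gene AT4G33720, 2.43 for ATGLR1.2, 2.27 for CYP82C2 and 2.26 for DIR5. In phr1 phl1 against the same Col-0 libraries, it was −2.06 for AT5G20790, −1.54 for AT4G01390, −2.84 for AT4 and −1.98 for AOC1, an allene oxide cyclase. It was 3.50 for CYP82C2, 2.18 for AT4G22485, 2.15 for CXE17 and 2.07 for AT3G21080.

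At low against high Pi, the departure was −2.95 for TH8, −2.50 for HSFA2, −2.29 for GolS2 and −2.19 for NAS4, and 3.44 for the defensin PDF1.2c, 3.14 for AT5G46900, 2.81 for AT5G46890 and 2.17 for the thioredoxin family gene AT3G62950. After −P against +P, it was −1.62 for AT3G43850, −1.42 for THA1, a threonine aldolase, −1.39 for DIN1 and −1.39 for PHI-1, and 2.61 for CYP79F1, 2.34 for CXE17, 1.78 for the peroxidase AT2G41480 and 1.77 for AK3, an aspartate kinase. After +Phi against +P, it was −2.74 for JRG21, −2.25 for AT2G38240, −1.87 for CRK4 and −1.75 for RTFL21, and 1.89 for LTP6, 1.82 for the subtilase AT4G21650, 1.71 for the peroxidase AT2G18150 and 1.66 for NAS4.

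With SynCom against axenic, the departure was positive for defence genes, at 6.61 for PR1, 5.16 for PR2, 4.3 for PR5, 3.43 for PDF1.2A, 2.19 for FMO1, 1.51 for FRK1 and 1.11 for ICS1. It was positive for the iron regulators called, at 4.94 for AT1G47400, 4.53 for AT1G47395, 3.94 for AT2G30766, 2.76 for BHLH100, 1.55 for BHLH38 and 0.66 for BHLH101. PR1, AT1G47400, AT1G47395, AT2G30766 and BHLH100 were near 0 in axenic B libraries, so the sizes of their departures depend on the prior count. For uptake the departure was negative, at −1.09 for IRT1 and −1.25 for FRO2. Root barrier genes departed by −2.25 for CASP1, −1.76 for MYB36, −1.50 for CYP86A1 and −1.33 for GPAT5. The remaining markers departed by 1.44 for LHY, 0.90 for CCA1, 0.56 for RBCS1A, 0.54 for LHCB1.1, −0.89 for IPS1 and −1.25 for VSP2.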

How the results depend on the processing

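Each named gene of the axenic comparison was refitted under up to 13 settings. Of 3128 values for 242 genes, 3067 kept their direction and side of the threshold, 41 lost the call, 9 gained it and 11 changed sign. The sign changed for 6 genes. Without 1 replicate number their values ran from −0.57 to 0.01 for PORC, −0.46 to 0.27 for BRN2, −0.2 to 0.13 for PLT2, −0.21 to 0.58 for AOC1 (−0.15 without A2), −0.14 to 0.05 for LHCB1.1 and −0.17 to 0.33 for IPS1 (−0.10 without B2). The limma-voom fit gave 0.08 for BRN2 and −0.05 for AOC1, and means per condition 0.05 for PLT2. Of these, only PORC was called with all libraries in the fit. The replicate block gave 6233 genes higher and 7709 lower in axenic libraries and 4756 and 5042 in SynCom libraries, within 1.5 times of the fit without the block.

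Leaving out 1 replicate number of 1 experiment gave 6038 to 6869 genes higher and 6449 to 7239 lower in axenic libraries, 4026 to 4389 and 3934 to 4515 with SynCom, and 4036 to 5440 and 3467 to 5007 for their difference. Upward and downward departures ranged over 19 to 2483 and 31 to 1339 in phf1, 12 to 2035 and 39 to 1196 in phr1 phl1, 730 to 2911 and 541 to 1686 at low Pi, 17 to 1547 and 50 to 750 after −P, and about 1.4e+02 to 1711 and 162 to 840 after +Phi. These fits assume that a lone library varies like the others. Without the 2 libraries in doubt, phr1 phl1 had 489 and 694 departures and −P 798 and 1024. In settings chosen after seeing the data, leaving them out gave 483 and 354 genes for the Pi response of B, and 143 genes with all B above all A libraries; the cause was not tested.

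Of 481 counts of members called over 37 lists, 12 moved by over 1.5 times. A stricter filter, which tests fewer genes, left 3 flavonoid genes lower, 3 touch genes and 0 root tip genes higher and 2 stomatal genes lower. Means per condition left 2 flavonoid genes lower. Root tip genes higher numbered 1 with the replicate block or with all libraries in 1 fit. Without 1 replicate number the ranges were 5 to 11 jasmonate genes lower, 4 to 8 chlorophyll genes higher and 0 to 3 root tip genes higher. Low counts limit the flavonoid, root tip and stomatal lists, and genes at 0 in B limit the size of the largest decreases.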
